A study of Mus musculus with 8 samples.

Results

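The genes described here are 8 members of the T-box family of transcription factors, Tbx1, Tbx2, Tbx3, Tbx4, Tbx5, Tbx15, Tbx18 and Tbx20. They were chosen by gene symbol, and all 8 have a row among the 17967 symbols of the count table. T-box factors share a DNA-binding domain, the T-box, and pattern the embryo by activating or repressing target genes in a dose-sensitive way. They specify limb, heart, pharyngeal and trunk mesoderm, and several continue to be expressed in mesenchymal cells of the adult. In white fat the family is known for differences between depots, Tbx15 most of all.

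The cells were adipose-derived stem cells, mesenchymal progenitors of fat tissue that can become adipocytes, and their RNA was sequenced in bulk. Collagenase digestion and red cell lysis preceded a sort by flow cytometry. All mice were male C57BL/6J wild type on a chow diet. There were 2 libraries from inguinal subcutaneous fat (SWAT), 2 from epididymal fat (EWAT) and 2 from perirenal fat (NWAT). No source used here gives the age of the mice or says whether each library came from 1 mouse or a pool, and the labels do not say that the replicates came from separate animals. The p-values therefore measure only the spread between these libraries, which may be technical. The mesenteric depot that the labels also name is not analysed here.

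Library totals were 20026377 to 20638684 counts, with 15858 to 16228 genes detected. Libraries of the same depot correlated more closely than those of different depots. All 8 markers of adipose stem cells, Pdgfra, Ly6a and Cd34 among them, reached a level of at least 1 CPM (TMM-scaled counts relative to library size) on average in each depot. They summed to 5140 to 5520 CPM in SWAT, 4320 CPM in EWAT and 5590 to 5800 CPM in NWAT. The 11 markers of mural cells, the pericytes and smooth muscle of vessels, summed to 643 to 700 CPM in SWAT, 461 to 494 CPM in EWAT and 383 to 384 CPM in NWAT. Most of that sum was Pdgfrb, which averaged 506 CPM in SWAT, 312 CPM in EWAT and 337 CPM in NWAT. The markers did not share a direction. In SWAT against EWAT 5 of the 11 passed as higher and 6 as lower (edgeR adjusted p under 0.05), where 18.0% and 18.7% of all genes did. In SWAT against NWAT 5 passed as higher and 1 as lower, where 9.07% and 9.83% of all genes did. In EWAT against NWAT 6 passed as higher and 1 as lower, where 13.3% and 14.0% of all genes did. The 9 mesothelial markers summed to 50.6 to 64 CPM in SWAT, 195 to 212 CPM in EWAT and 153 to 189 CPM in NWAT. Without Wt1 the other 8 summed to 50.6 to 64 CPM in SWAT, 43.6 to 50.7 CPM in EWAT and 46.1 to 54 CPM in NWAT. Most of that remainder was Cldn15, at 53.4 CPM in SWAT, 38.7 CPM in EWAT and 38.2 CPM in NWAT on average. Of the 7 tested, 2 passed as higher and 5 as lower in SWAT against EWAT, where 18.0% and 18.7% of all genes did. In SWAT against NWAT 0 passed as higher and 5 as lower, where 9.07% and 9.83% of all genes did. In EWAT against NWAT 0 passed as higher and 1 as lower, where 13.3% and 14.0% of all genes did. Of the 9, 2, Muc16 and Wt1, were at 0 counts in SWAT. The 8 macrophage markers summed to 12.2 to 22 CPM in SWAT, 35.7 to 37.6 CPM in EWAT and 19.2 to 20.7 CPM in NWAT. For the 7 endothelial markers the sums were 24.7 to 25.1 CPM in SWAT, 16.4 to 24.5 CPM in EWAT and 14 to 14.3 CPM in NWAT. The 4 neural and Schwann cell markers summed to 11.7 to 16.3 CPM in SWAT, 4.53 to 6.07 CPM in EWAT and 4.56 to 5.2 CPM in NWAT. Epithelial markers summed to at most 0.286 CPM in any library. The 3 erythroid markers summed to 158 CPM in NWAT replicate 2, against at most 14.6 CPM in each of the other libraries.

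Counts of close relatives could be mixed if the genes shared long stretches of sequence, so the coding sequences of the 8 genes were compared. The longest identical run between any 2 members was 23 bases, found in the pair Tbx15 and Tbx18 and in the pair Tbx4 and Tbx5. No stretch of 50 bases in the annotated transcripts of 1 member occurred in another member. Below, 60 bases from or at the start of the T-box coding region are given for 2 pairs of close relatives (reference genome GRCm38, GENCODE M21 transcripts), with the longest run shared by the pair in capitals. They show how similar and how separable the members are.
Tbx15: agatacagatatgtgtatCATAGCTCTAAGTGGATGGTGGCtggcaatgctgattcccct
Tbx18: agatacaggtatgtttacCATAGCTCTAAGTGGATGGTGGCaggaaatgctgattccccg
Tbx2: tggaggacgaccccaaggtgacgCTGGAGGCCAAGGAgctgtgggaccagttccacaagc
Tbx3: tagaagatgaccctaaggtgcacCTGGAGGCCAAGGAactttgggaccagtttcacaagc
Over these 60 bases Tbx15 and Tbx18 differed at 6 positions, and Tbx2 and Tbx3 at 10. Outside the family, 1.39% of the 50-base stretches of Tbx3 and 18.06% of those of Tbx18 also lie in an annotated gene that overlaps it, Tbx3os1 on the strand opposite to Tbx3 and D030062O11Rik on the strand opposite to Tbx18. Neither has a row in the count table, and no source used here gives the strand setting of the counting. If the counting ignored strand, reads of Tbx18 and of D030062O11Rik cannot be told apart over that overlap. A gene without a row, Gm43120, overlaps Tbx15 but shares no such stretch with it. Genes that are neither members nor overlap them shared 0.46% of the stretches of Tbx5, 0.35% of those of Tbx18 and 0.11% of those of Tbx20.

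The T-box genes fell into 3 patterns across the depots. Tbx15, Tbx5 and Tbx1 were highest in SWAT, Tbx1 at a low level there, and at or near the limit of detection in EWAT. Tbx3 was highest in EWAT and Tbx2 highest in SWAT, both lowest in NWAT. Tbx18 differed least among the members tested. Tbx4 and Tbx20 had too few counts to be tested. Of the 8 genes, 6 passed the filter on low counts, and Tbx1 and Tbx5 passed it only through SWAT, so that a difference between depots was built into their passing.

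**Figure D1:**
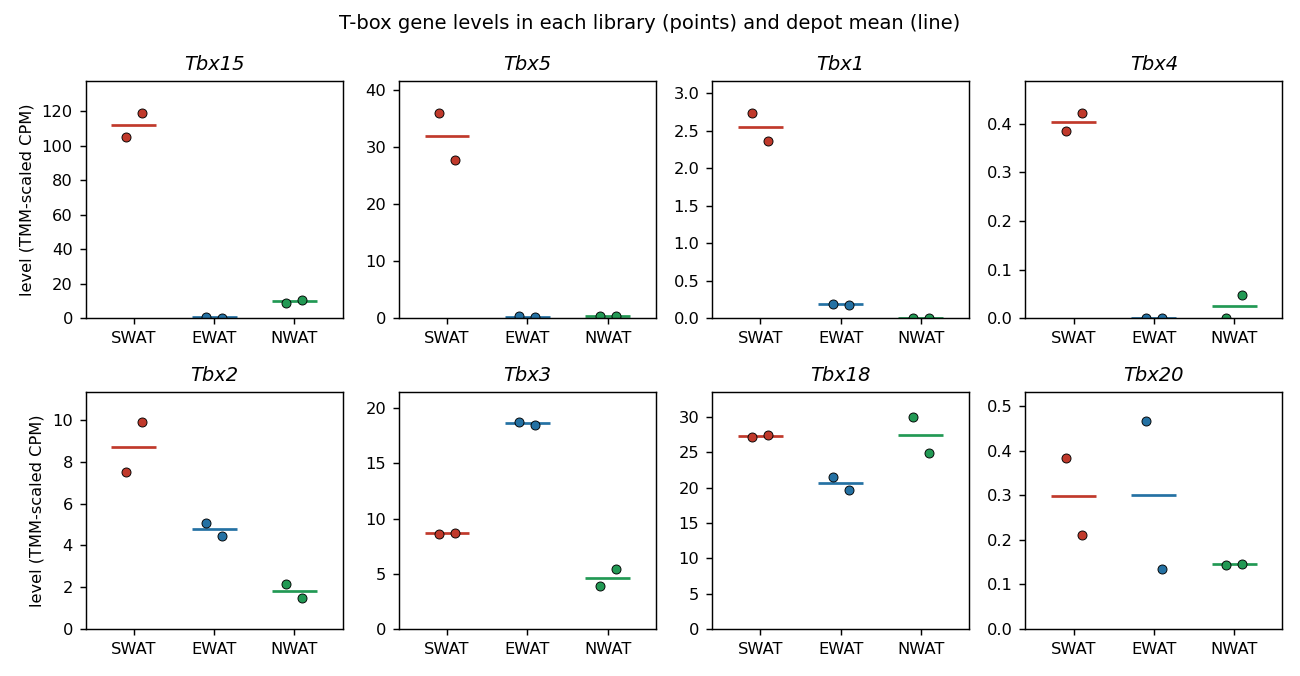
Level of each T-box gene (TMM-scaled CPM, each panel with its own axis from 0) in the 2 libraries of SWAT, EWAT and NWAT; points are libraries and lines are depot means. Tbx15 stood at 105 and 119 CPM in SWAT and below 11 CPM in the libraries of the other depots, and Tbx3 was highest in EWAT with 18.8 and 18.5 CPM.

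In the joint test among the 3 depots, 6 members passed an adjusted p of 0.05 in edgeR's quasi-likelihood test with Benjamini-Hochberg adjustment, where 41.7% of the 13694 genes tested passed. In SWAT against EWAT 6 members passed, where 36.7% of all genes did. Of these, 5 were higher, against 18.0% of all genes, and 1 was lower, against 18.7%. In SWAT against NWAT 5 passed, where 18.9% of all genes did; all 5 were higher, against 9.07% of all genes, and 0 were lower, against 9.83%. In EWAT against NWAT 5 passed, where 27.3% of all genes did, with 3 higher, against 13.3% of all genes, and 2 lower, against 14.0%. Leaving aside Tbx1 and Tbx5, which passed the filter on low counts only through SWAT, 4 tested members remained. Of these, 3 were higher and 1 lower in SWAT against EWAT, and 3 higher and 0 lower in SWAT against NWAT. Between EWAT and NWAT 2 of them were higher and 2 lower in EWAT. The members were chosen with earlier results of these data known, so these counts are not independent evidence. Without NWAT replicate 2, the library with high erythroid markers, the members that had passed against NWAT kept their directions. The call of Tbx1 in EWAT against NWAT was lost there, as given below. The comparisons share libraries and are not independent of each other. In bulk RNA, fewer cells of a type and less RNA per cell cannot be told apart, which applies to each value below.

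Tbx15 codes for a factor needed for the skeleton of limb, trunk and head, and it is a known marker of fat depots. The gene lies on chromosome 3 from 99240381 to 99354259 on the plus strand (GRCm38), with 8 exons in the transcript used. Its level was 105 and 119 CPM in SWAT, 0.701 and 0.315 CPM in EWAT and 8.88 and 10.5 CPM in NWAT. The 3 depots did not overlap, and EWAT was close to the detection limit, with 22 counts in both libraries together against 4185 in SWAT and 403 in NWAT. Tbx15 was 7.78 ± 0.22 log2 units (SE) higher in SWAT than in EWAT (edgeR adjusted p = 8.31e-10), the 14th highest value of all tested genes. It was 3.53 ± 0.15 log2 units higher in SWAT than in NWAT (edgeR adjusted p = 4.04e-08). It was lower in EWAT than in NWAT, with a log2 fold change of -4.25 ± 0.25 (edgeR adjusted p = 4.57e-07), so that NWAT stood between the other depots. By FPKM, which allows genes to be compared, Tbx15 lay above 90.5% of all symbols in SWAT, above 24.5% in EWAT and above 47.4% in NWAT.

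Tbx5 starts the outgrowth of the forelimb and is needed in the heart. It lies on chromosome 5 from 119832668 to 119885219 on the plus strand. Its level was 36 and 27.7 CPM in SWAT, 0.374 and 0.225 CPM in EWAT and 0.334 and 0.437 CPM in NWAT. SWAT stood apart, while EWAT and NWAT overlapped at 13 and 16 counts per depot. Tbx5 was 6.71 ± 0.25 log2 units higher in SWAT than in EWAT (edgeR adjusted p = 5.11e-09). Against NWAT it was 6.35 ± 0.25 log2 units higher in SWAT (edgeR adjusted p = 2.27e-08), the 9th highest of the tested genes. EWAT and NWAT were not distinguishable at this depth, with a log2 fold change of -0.36 and a 95% interval of -1.44 to 0.72 (edgeR adjusted p = 0.635).

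Tbx4 is the hindlimb counterpart of Tbx5 and lies on chromosome 11 from 85886422 to 85916097 on the plus strand. It had 7 and 8 counts in SWAT, 0 and 0 counts in EWAT, and 0 and 1 count in NWAT. All its signal but 1 count was in SWAT, at a level of 0.403 ± 0.0269 CPM (SD, n = 2). It was below the filter and was not tested. Against a floor of 3 counts per library, SWAT was at least 2.93-fold higher than EWAT, and the ratio of SWAT to NWAT was 16.8 with an exact 95% counting interval of 2.58 to 706. Such intervals cover counting error only. The floor stands in for 0 counts, and the bounds here and below take the counts of the other depot as observed, without their counting error. Per length, Tbx5 reached 7.4 ± 1.21 FPKM and Tbx4 0.115 ± 0.00707 FPKM in SWAT (SD, n = 2).

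Tbx1 is required for the pharyngeal arches and the outflow tract of the heart, and it has been described as a marker of beige adipocytes. It lies on chromosome 16 from 18580979 to 18590671 on the minus strand. Its level was 2.74 and 2.37 CPM in SWAT, 0.187 and 0.18 CPM in EWAT and 0 in both NWAT libraries. By FPKM it lay above 40.8% of all symbols in SWAT. The depots did not overlap, but EWAT rested on 4 counts in each library. Tbx1 was 3.76 ± 0.46 log2 units higher in SWAT than in EWAT (edgeR adjusted p = 1.04e-04). Against a floor of 3 counts per library, which is 0.144 CPM in NWAT, it was at least 17.7-fold higher in SWAT than in NWAT (edgeR adjusted p = 3.43e-05). In EWAT against NWAT, 8 counts stood against 0, which is 1.27-fold the floor when the 8 are taken as observed (edgeR adjusted p = 0.0244). That last call was lost in 6 of 15 alternative fits, among them those without SWAT replicate 1, EWAT replicate 2, NWAT replicate 1 or NWAT replicate 2, with adjusted p between 0.0504 and 0.0989.

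Tbx2 and Tbx3 are close relatives that act as transcriptional repressors in limb, heart and mammary gland, and both are known to repress cell cycle inhibitors. Tbx2 lies on chromosome 11 from 85832551 to 85841948 and Tbx3 on chromosome 5 from 119670669 to 119684724, both on the plus strand. Tbx2 stood at 7.51 and 9.91 CPM in SWAT, 5.09 and 4.45 CPM in EWAT and 2.15 and 1.5 CPM in NWAT. Its 3 depots did not overlap and fell in that order. Tbx2 was 0.87 ± 0.21 log2 units higher in SWAT than in EWAT (edgeR adjusted p = 0.00787), a call lost without SWAT replicate 2, where the log2 fold change was 0.66 (adjusted p = 0.1003). It was 2.25 ± 0.24 log2 units higher in SWAT than in NWAT (edgeR adjusted p = 4.30e-05) and 1.38 ± 0.25 log2 units higher in EWAT than in NWAT (edgeR adjusted p = 0.00152).

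Tbx3 stood at 8.61 and 8.7 CPM in SWAT, 18.8 and 18.5 CPM in EWAT and 3.86 and 5.39 CPM in NWAT. It was the one member highest in EWAT among those tested, and its depots did not overlap. It was lower in SWAT than in EWAT, with a log2 fold change of -1.10 ± 0.15 (edgeR adjusted p = 1.79e-04). It was 0.90 ± 0.17 log2 units higher in SWAT than in NWAT (edgeR adjusted p = 0.00286). In EWAT it was 2.01 ± 0.16 log2 units higher than in NWAT (edgeR adjusted p = 3.85e-06). Both relatives were thus lowest in NWAT, while SWAT and EWAT ranked in opposite order for them.

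**Figure D2:**
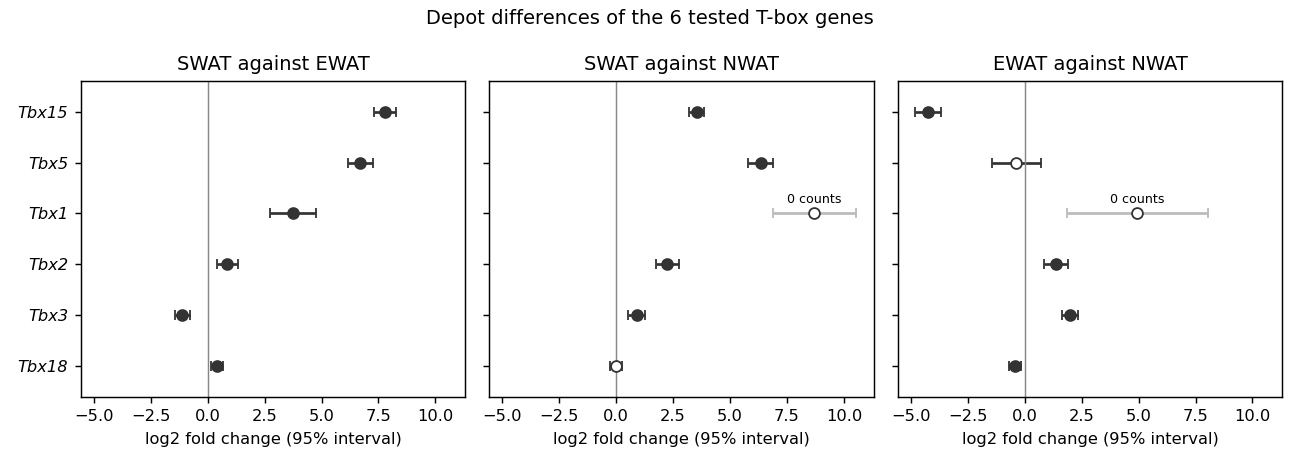
Log2 fold change of the 6 tested T-box genes between each pair of depots, with 95% intervals from the edgeR fit; filled points passed an adjusted p of 0.05, and open points did not or, where marked, have 0 counts in a depot. Tbx15 reached 7.78 in SWAT against EWAT and -4.25 in EWAT against NWAT, and the marked fitted values of Tbx1 depend on the prior count of the fit.

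Tbx18 marks epicardium, the mesenchyme around the ureter and mural cells of many organs. It lies on chromosome 9 from 87702800 to 87731260 on the minus strand. Its level was 27.2 and 27.4 CPM in SWAT, 21.5 and 19.7 CPM in EWAT and 30 and 24.9 CPM in NWAT. EWAT was lowest without overlap, and SWAT lay within the range of NWAT. In SWAT it was 0.41 ± 0.12 log2 units higher than in EWAT (edgeR adjusted p = 0.0212), and in EWAT against NWAT the log2 fold change was -0.41 ± 0.12 (edgeR adjusted p = 0.0245). SWAT and NWAT were not distinguishable, with a log2 fold change of -0.01 and a 95% interval of -0.27 to 0.25 (edgeR adjusted p = 0.974).

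Both Tbx18 calls were fragile. The difference between SWAT and EWAT was lost with scaling by library size alone, where it was 0.17 log2 units (adjusted p = 0.273). It was also lost without SWAT replicate 1 (adjusted p = 0.0894), SWAT replicate 2 (adjusted p = 0.0997) or EWAT replicate 2 (adjusted p = 0.0730). The difference between EWAT and NWAT was lost without EWAT replicate 2 (adjusted p = 0.0964) and without NWAT replicate 1, where it was -0.27 log2 units (adjusted p = 0.237). Neither difference passed in the 3 fits on the authors' FPKM. The mural marker Abcc9, a subunit of a potassium channel, stood at 97 ± 22.6 CPM in SWAT, 4.99 ± 1.2 CPM in EWAT and 3.36 ± 0.641 CPM in NWAT (n = 2 each, SD). Other mural markers had another order, and Des, a muscle intermediate filament gene, stood at 5.13 ± 1.36 CPM in SWAT, 93.4 ± 3.51 CPM in EWAT and 16.2 ± 0.999 CPM in NWAT. Myh11, the smooth muscle myosin gene, stood at 4.45 ± 1.09 CPM in SWAT, 25.4 ± 2.35 CPM in EWAT and 1.46 ± 0.629 CPM in NWAT. The part of mural markers in the Tbx18 values was not tested.

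Tbx20 is a cardiac regulator and lies on chromosome 9 from 24718138 to 24774303 on the minus strand. It had 7 and 4 counts in SWAT, 10 and 3 counts in EWAT and 3 counts in each NWAT library. The depots overlapped, and it was too low to be tested. The ratio of SWAT to EWAT was 0.993 with an exact 95% counting interval of 0.403 to 2.4.

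Summed over the 8 genes, the authors' FPKM values came to 47.1 ± 2.28 in SWAT, 10.7 ± 0.445 in EWAT and 10.5 ± 0.346 in NWAT (n = 2 each, SD). EWAT and NWAT had nearly the same sum but different members in it. Tbx15 held 61.8% ± 3.19 of the sum in SWAT, 1.48% ± 0.733 in EWAT and 27% ± 4.17 in NWAT. Tbx3 held 3.53% ± 0.0812 in SWAT, 39.3% ± 1.9 in EWAT and 9.67% ± 2.66 in NWAT. Tbx18 held 11.2% ± 0.242 in SWAT, 43.7% ± 0.0974 in EWAT and 57.1% ± 6.1 in NWAT. In SWAT the leading gene was thus Tbx15, followed by Tbx5 with 15.8% ± 3.34. Tbx18 led in both EWAT and NWAT, followed by Tbx3 in EWAT and by Tbx15 in NWAT.

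**Figure D3:**
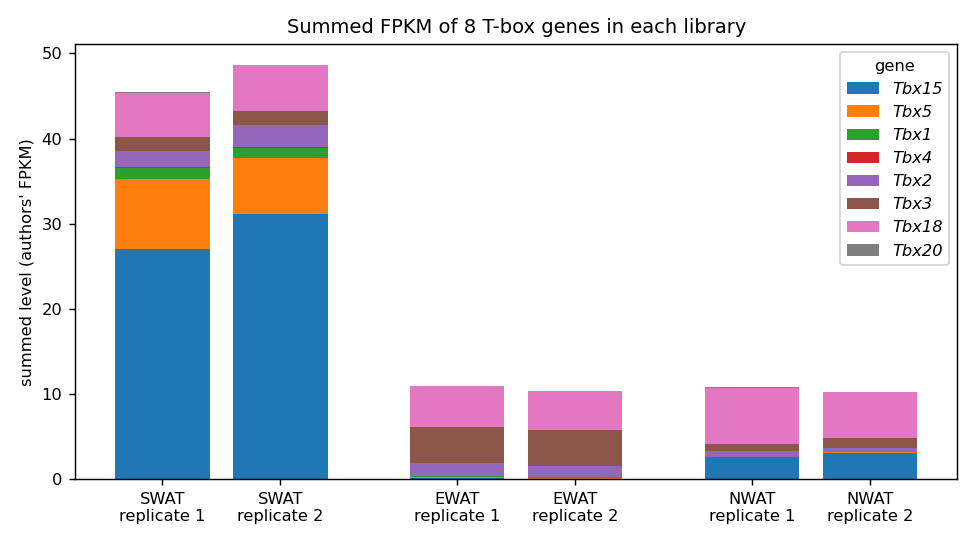
The authors' FPKM of the 8 T-box genes, stacked for each library of SWAT, EWAT and NWAT. The bars reached 45.44 and 48.67 FPKM in SWAT, and the depot means were 10.7 in EWAT and 10.5 in NWAT; Tbx15 (blue) fills most of the SWAT bars, Tbx3 (brown) and Tbx18 (pink) most of the EWAT bars.

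Of the other T-box family genes, 7 have a row and 2 passed the filter. Tbx6, which patterns the somites of the embryo, stood at 5.1 ± 0.544 CPM in SWAT, 3.85 ± 0.0403 CPM in EWAT and 4.81 ± 0.465 CPM in NWAT (n = 2 each, SD). Mga, which combines a T-box with a domain that pairs with Max, stood at 92 ± 5.87 CPM in SWAT, 68 ± 22.9 CPM in EWAT and 86.6 ± 1.57 CPM in NWAT. Neither passed the test in any pair, with edgeR adjusted p between 0.101 and 0.813. The founding member T, Tbr1, Eomes, Tbx10 and Tbx21 had at most 13 counts in any depot.

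Some members lie near each other in the genome, which allows neighbours to be compared. Tbx3 and Tbx5 are 147.9 kb apart on chromosome 5, and Tbx2 and Tbx4 are 44.5 kb apart on chromosome 11. Between Tbx2 and Tbx4 lies Gm11444, annotated as protein-coding and without a row in the count table. Tbx5 was higher in SWAT than in EWAT and its neighbour Tbx3 lower, whereas in SWAT against NWAT both were higher. Rbm19, on the far side of Tbx5, did not pass in any pair, with a log2 fold change of 0.06 in SWAT against EWAT, -0.14 in SWAT against NWAT and -0.20 in EWAT against NWAT. Med13l, on the far side of Tbx3, was 0.43 log2 units higher in SWAT than in EWAT (edgeR adjusted p = 0.0400).

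Most other neighbours did not pass the test. Wars2, a mitochondrial tryptophanyl-tRNA synthetase gene that ends 1.2 kb from the start of Tbx15, was 0.50 log2 units higher in SWAT than in EWAT (edgeR adjusted p = 0.0180), against 7.78 for Tbx15. It did not pass in the other 2 pairs, with log2 fold changes of 0.16 in SWAT against NWAT and -0.34 in EWAT against NWAT. Bcas3 beside Tbx2, Brip1 beside Tbx4, Gnb1l and Gp1bb beside Tbx1 and Cep162 beside Tbx18 did not pass in any pair. Nt5e, which codes for the ecto-nucleotidase CD73 and lies 595.9 kb from Tbx18, passed in all 3 pairs. It had 665 and 468 counts in SWAT, 1911 and 2007 in EWAT and 384 and 284 in NWAT. Its log2 fold change was -1.55 in SWAT against EWAT (edgeR adjusted p = 1.18e-04), 0.93 in SWAT against NWAT (edgeR adjusted p = 0.00722) and 2.48 in EWAT against NWAT (edgeR adjusted p = 1.02e-05). Nt5e was highest in EWAT.

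Promoter sequences were at hand for 4 members, of which Tbx1 and Tbx18 were tested. They are shown as the 250 bases before the annotated start (RefSeq, GRCm38.p6), with CpG dinucleotides in capitals, since one belongs to a gene found mainly in SWAT and the other to the member that differed least. The Tbx1 window shown is chr16:18590672-18590921 and the Tbx18 window chr9:87731261-87731510, both on the minus strand and written 5′ to 3′ along the gene.
Tbx1: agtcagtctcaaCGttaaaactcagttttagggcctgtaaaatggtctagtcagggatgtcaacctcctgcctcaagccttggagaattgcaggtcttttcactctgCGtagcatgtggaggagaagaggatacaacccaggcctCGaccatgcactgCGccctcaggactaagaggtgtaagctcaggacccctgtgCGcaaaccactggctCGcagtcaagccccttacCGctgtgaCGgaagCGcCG
Tbx18: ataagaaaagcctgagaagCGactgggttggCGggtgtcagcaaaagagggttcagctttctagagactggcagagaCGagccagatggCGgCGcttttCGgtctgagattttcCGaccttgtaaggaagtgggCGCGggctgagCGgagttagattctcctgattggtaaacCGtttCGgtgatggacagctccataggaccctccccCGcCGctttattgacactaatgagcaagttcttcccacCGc
The Tbx1 window shown held 10 CpG and 54.4% G and C, and the Tbx18 window 15 CpG and 54.0% G and C. A second Tbx1 window, before another annotated start (chr16:18588900-18589149), held 17 CpG and 67.2% G and C. The median over 32851 mouse promoter windows of that length was 6 CpG and 52.4%. The T-box half-site AGGTGTGA or its reverse complement TCACACCT was in 0 of 5 windows of the 4 members and in 1.12% of all windows, which says only that these letters are not in those windows.

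Genes that act beside T-box factors in the limb and trunk were mostly higher in SWAT. Of 17 such genes with a row, 15 were tested. In SWAT against EWAT 10 were higher and 2 lower, where 18.0% of all tested genes were higher and 18.7% lower, with a median log2 fold change of 1.49 against -0.01 over all tested genes. In SWAT against NWAT 9 were higher and 2 lower, where 9.07% of all genes were higher and 9.83% lower, with a median of 0.60 against -0.02. In EWAT against NWAT 2 were higher and 6 lower, where 13.3% of all genes were higher and 14.0% lower, with a median of -0.22 against 0.01. Shox2, Lmx1b and Hand2 passed the filter on low counts only through SWAT, so that their difference was built into their passing. Of the other 12 genes, 7 were higher and 2 lower in SWAT against EWAT, and 6 were higher and 2 lower in SWAT against NWAT. Genes of this list and of the next were listed with earlier results of these data known, so their direction is not independent evidence.

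Shox2, a homeobox gene of the proximal limb, stood at 54.6 ± 3.55 CPM in SWAT, 0.182 ± 0.0598 CPM in EWAT and 0.29 ± 0.14 CPM in NWAT (n = 2 each, SD). Its pattern resembled that of Tbx5, with log2 fold changes of 8.17 ± 0.23 in SWAT against EWAT (edgeR adjusted p = 8.25e-10) and 7.53 ± 0.21 in SWAT against NWAT (edgeR adjusted p = 2.18e-09). Both genes passed the filter on low counts only through SWAT, so part of the resemblance was built into their passing. Lmx1b, which specifies the dorsal limb, had 154 and 138 counts in SWAT, 0 in both EWAT libraries and 10 and 6 counts in NWAT, at least 57.1-fold higher in SWAT than in EWAT. Pitx1, which specifies the hindlimb and is known to act upstream of Tbx4, had 58 and 40 counts in SWAT, 0 in both EWAT libraries and 17 and 32 counts in NWAT. It was at least 19.2-fold higher in SWAT than in EWAT, whereas SWAT against NWAT did not pass (log2 fold change 1.16 ± 0.40, edgeR adjusted p = 0.0685). Hoxc10, a posterior Hox gene, stood at 56.1 ± 4.04 CPM in SWAT, 2.08 ± 0.235 CPM in EWAT and 25.7 ± 0.678 CPM in NWAT. En1, a homeobox gene of the ventral limb and trunk dermis, stood at 28.5 ± 0.127 CPM in SWAT, 2.47 ± 0.00278 CPM in EWAT and 18.8 ± 2.63 CPM in NWAT. Lmx1b, Hoxc10 and En1, like Tbx15, were lowest in EWAT and had an intermediate level in NWAT. Hand2, a limb and heart factor, was higher in SWAT on few counts, with 38 in SWAT, 9 in EWAT and 1 in NWAT, a ratio of SWAT to NWAT of 42.5 with an exact 95% counting interval of 7.17 to 1720. Msx1, a homeobox gene of limb mesenchyme, was 1.70 ± 0.13 log2 units higher in SWAT than in NWAT (edgeR adjusted p = 3.71e-06).

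Regulators of heart, coelomic lining and pharynx were mostly lower in SWAT. Of 15 with a row, 14 were tested. In SWAT against EWAT 2 were higher and 10 lower, where 18.0% of all genes were higher and 18.7% lower, with a median log2 fold change of -1.26. In SWAT against NWAT 1 was higher and 10 lower, where 9.07% of all genes were higher and 9.83% lower, with a median of -1.63, or -1.47 with genes at 0 counts set to their bound. In EWAT against NWAT 4 were higher and 3 lower, where 13.3% of all genes were higher and 14.0% lower, with a median of 0.07. Of the 14, 3 passed the filter only through EWAT or only through NWAT, Gata4 and Eya1 among them, and without these 3 the count was 1 higher and 9 lower both in SWAT against EWAT and in SWAT against NWAT. Tcf21, a basic helix-loop-helix gene of visceral mesenchyme, stood at 0.135 ± 0.0417 CPM in SWAT, 365 ± 51.4 CPM in EWAT and 113 ± 11.5 CPM in NWAT (n = 2 each, SD). Wt1, a zinc-finger gene of the coelomic lining, had 0 counts in both SWAT libraries, 156 ± 6.45 CPM in EWAT and 121 ± 20.5 CPM in NWAT. Wt1 is also 1 of the 9 mesothelial markers, and it makes up most of their sum in EWAT and NWAT. It was not the only one to differ. Msln, Muc16 and Upk3b were also lower in SWAT than in both other depots, whereas Krt19 and Cldn15 were higher in SWAT than in EWAT. The part of mesothelial cells in these values was not tested. Foxc1, a forkhead gene of mesoderm, stood at 1.91 ± 0.0907 CPM in SWAT, 21.3 ± 0.259 CPM in EWAT and 26.3 ± 1.49 CPM in NWAT. Gata4, a cardiac and coelomic zinc-finger gene, had 0 counts in SWAT, 23 and 29 in EWAT and 0 and 5 in NWAT. Foxf1, a forkhead gene of visceral mesoderm, was lower in SWAT than in NWAT, with a log2 fold change of -2.06 ± 0.38 (edgeR adjusted p = 0.00264). Eya1, a coactivator gene of pharyngeal organs, was lower in EWAT than in NWAT, with a log2 fold change of -1.67 ± 0.45 (edgeR adjusted p = 0.0168). Tcf21, Wt1, Foxc1 and Gata4 did not have the depot order of Tbx15, Tbx5 or Tbx1, which were highest in SWAT.

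**Figure D4:**
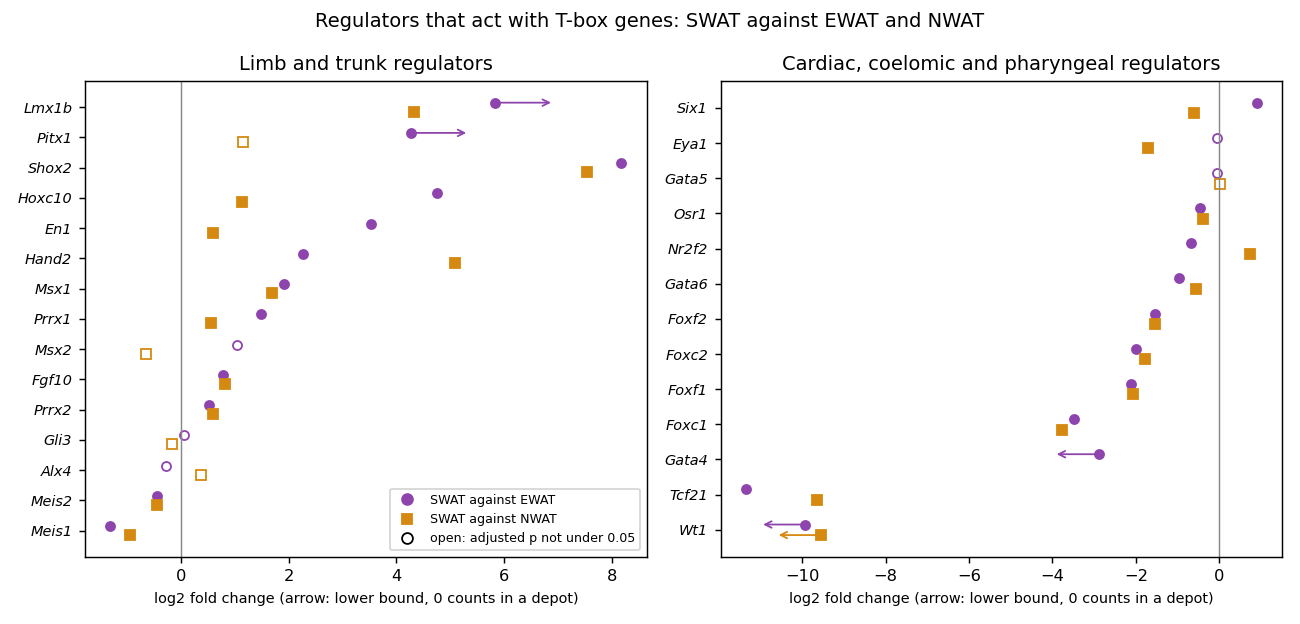
Log2 fold change of the tested limb and trunk regulators (left) and of the cardiac, coelomic and pharyngeal regulators (right), in SWAT against EWAT (circles) and SWAT against NWAT (squares); filled points passed an edgeR adjusted p of 0.05, and arrows start at the bound of a gene with 0 counts in a depot. A gene of the right list is not drawn. Gata4 in SWAT against NWAT is left out because SWAT had 0 counts and the 5 counts of NWAT did not exceed the summed floor of its 2 libraries, at 3 counts per library. As filled circles, 10 limb and trunk genes lie right of 0, and 10 of the other list lie left of 0.

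Cofactors of T-box proteins, mainly chromatin and corepressor genes, numbered 13, and all were tested. In SWAT against EWAT 8 passed, 4 higher and 4 lower, where 36.7% of all genes passed, with a median log2 fold change of 0.04. In SWAT against NWAT 4 passed, 3 higher and 1 lower, where 18.9% of all genes passed, with a median of -0.06. Between EWAT and NWAT 6 passed, 1 higher and 5 lower in EWAT, where 27.3% of all genes passed, with a median of -0.07. With scaling by library size alone the split became 2 higher and 6 lower in SWAT against EWAT and 1 higher and 4 lower in SWAT against NWAT. That scaling moved the calls of all genes the same way, to 20.9% higher in SWAT against EWAT and 18.9% higher in SWAT against NWAT. The Groucho-type corepressor genes Tle1 and Tle2 differed most and in opposite ways. Tle2 stood at 31.1 ± 3.9 CPM in SWAT, 4.43 ± 0.672 CPM in EWAT and 16 ± 1.75 CPM in NWAT. Tle1 stood at 31.6 ± 1.56 CPM in SWAT, 71 ± 2.56 CPM in EWAT and 23.2 ± 3.3 CPM in NWAT (n = 2 each, SD). Tle2 had the depot order of Tbx15, and Tle1 that of Tbx3. Kdm6b, a histone demethylase gene, was lower in EWAT than in NWAT, at -0.78 ± 0.15 (edgeR adjusted p = 0.00311), and Tle3, a relative of Tle1, was lower in SWAT than in NWAT, at -0.79 ± 0.12 (edgeR adjusted p = 7.12e-04).

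Of 16 genes described as T-box targets, 11 were tested, 1 of which passed the filter only through NWAT. In SWAT against EWAT 7 passed, 4 higher and 3 lower, where 36.7% of all genes passed, with a median log2 fold change of -0.11. In SWAT against NWAT 5 passed, 2 higher and 3 lower, where 18.9% of all genes passed, with a median of -0.31. Between EWAT and NWAT 5 passed, 1 higher and 4 lower in EWAT, where 27.3% of all genes passed, with a median of -0.20. With scaling by library size alone 3 were higher and 5 lower in SWAT against EWAT, where 20.9% of the calls over all genes were higher. The gap junction gene Gja1, which Tbx2 and Tbx3 are known to repress in the heart, stood at 184 ± 9.19 CPM in SWAT, 438 ± 20.6 CPM in EWAT and 422 ± 55.9 CPM in NWAT (n = 2 each, SD). Gja1 did not pass in EWAT against NWAT, with a log2 fold change of 0.06 ± 0.12 (edgeR adjusted p = 0.766). Cdkn1a, a cell cycle inhibitor gene repressed by Tbx2 in other cells, stood at 175 ± 4.25 CPM in SWAT, 111 ± 1.63 CPM in EWAT and 173 ± 4.01 CPM in NWAT. It was lowest in EWAT, and SWAT and NWAT were not distinguishable, with a log2 fold change of 0.02 ± 0.10 (edgeR adjusted p = 0.926). Fgf10, a limb outgrowth signal activated by Tbx5 and Tbx4 in the embryo, stood at 118 ± 14.4 CPM in SWAT, 68.5 ± 4.24 CPM in EWAT and 66.5 ± 3.68 CPM in NWAT. Its log2 fold change was 0.78 ± 0.11 in SWAT against EWAT (edgeR adjusted p = 2.63e-04) and 0.82 ± 0.11 in SWAT against NWAT (edgeR adjusted p = 3.42e-04). EWAT against NWAT did not pass for Fgf10, at 0.04 ± 0.11 (edgeR adjusted p = 0.816). Mef2c, a transcription factor gene, stood at 31.2 ± 0.0917 CPM in SWAT, 7.31 ± 0.102 CPM in EWAT and 21.4 ± 0.393 CPM in NWAT. Its depot order was that of Tbx15. The stress response gene Ndrg1 was lower in SWAT than in EWAT, at -0.98 ± 0.11 (edgeR adjusted p = 3.55e-05), and the signalling gene Wnt5a was lower in SWAT than in NWAT, at -0.68 ± 0.11 (edgeR adjusted p = 0.00122).

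For each member past the joint test, the 3 genes whose log2 CPM followed it most closely over the 6 libraries were sought among at least 10415 tested genes. These correlations describe 3 depots and are given without a p, since genes that separate the same depots correlate by that alone. For Tbx15 they were Frem1, which codes for a basement membrane protein, Abcb9 and Wdr91, with Pearson r of 0.9986, 0.9985 and 0.9984. Frem1 stood on average at 19.3 CPM in SWAT, 0.852 CPM in EWAT and 4.4 CPM in NWAT. For Tbx5 they were Col6a2, a collagen VI gene, Cfap74 and Tspan11, with r of 0.9971, 0.997 and 0.9969. For Tbx1 they were Man2b1, the fibroblast growth factor gene Fgf7 and Rufy1, with r of 0.9985, 0.9976 and 0.9962. For Tbx2 they were Nup93, Dok4 and Slc6a8, with r of 0.9946, 0.9929 and 0.9898. For Tbx3 they were Ube2g2, Trappc6a and Tspan9, with r of 0.9928, 0.9923 and 0.9921. For Tbx18 they were Unkl, Nptxr and Lpcat4, with r of 0.9962, 0.9929 and 0.99. No T-box gene was among these genes of another member. Tbx1, below the minimum mean level for candidates, and the untested Tbx4 and Tbx20 could not have been named.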

How the data were processed

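RNA of sorted adipose-derived stem cells was sequenced in bulk, and 6 libraries from 3 depots are used. The authors deposited estimated counts per gene symbol, not normalized, per the file headers, and 31.7% to 33.1% of the values in a library are not whole. The authors deposited FPKM values as a separate table, per the file headers. Per the submitters' processing notes, the build was GRCm38.p6; the notes also name Cell Ranger and Seurat, with neither a version nor a role. No source used here names the aligner, the counter or the annotation. In each table, 2 columns match no label and were left out. Libraries were matched to depots by the letter and number of the column names.

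Counts were rounded, scaled by TMM and filtered with filterByExpr by depot (count minimum 10, total minimum 15), which left 13694 of 17967 symbols. The quasi-likelihood test of edgeR 4.0.16 (R 4.3.3) was fitted to all 6 libraries with 1 coefficient per depot and 3 residual degrees of freedom, and p-values were adjusted over all tested genes by the Benjamini-Hochberg method at 0.05. CPM values are TMM-scaled, with the SD over 2 libraries. Bounds use a floor of 3 counts per library for a depot at 0 counts and take the other depot's counts as observed. Ratios of few counts carry exact 95% intervals. Alternatives were RLE factors, library size alone, no filter or a stricter filter (1 CPM), DESeq2 1.42.0, a replicate block, limma 3.58.1 on log2(FPKM + 1) or log2(FPKM + 0.1), and leaving out each library. Positions come from GENCODE M21 on GRCm38, and promoters from RefSeq.

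The members and gene lists were chosen with earlier results of these data known. Named were all members, the other T-box genes, up to 4 members of each list with the largest change past the threshold in a pair, the 3 genes most like each member (mean log2 CPM of at least 2) and the nearest protein-coding genes. Of the cell type marker lists a few genes are given, and Pdgfra, Ly6a and Cd34 were picked as examples after their values were seen. Some genes that the rule names are not reported here.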

Additional observations from a re-analysis of the deposited data

How the results depend on the processing

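The directions of the tested T-box genes held in each of 15 alternative fits for every pair that passed. Tbx15 and Tbx5 kept all their calls, Tbx15 between 4.70 and 8.45 log2 units in SWAT against EWAT. Tbx2 in SWAT against EWAT was also lost with limma on log2(FPKM + 0.1) (0.59, adjusted p = 0.0681) and without a filter on FPKM (0.40, adjusted p = 0.0726), and Tbx3 in SWAT against NWAT without that filter (0.41, adjusted p = 0.0738). Tbx18 in EWAT against NWAT was lost with DESeq2 (-0.42, adjusted p = 0.0522), and both its calls with limma on FPKM. In EWAT against NWAT 3 members passed with limma on log2(FPKM + 1), with or without the filter, and 3 to 5 when 1 library was left out. Genes called when leaving out 1 library ranged from 3085 to 5672 in SWAT against EWAT, from 1467 to 3323 in SWAT against NWAT and from 2129 to 4884 in EWAT against NWAT. Library size alone gave 3946 genes in SWAT against NWAT. It shifted the median log2 fold change by -0.24 in SWAT against EWAT and -0.19 in SWAT against NWAT. The share of calls that were higher became 20.9% in SWAT against EWAT (49.1% with TMM, 19.3% with log2(FPKM + 1)) and 18.9% in SWAT against NWAT (48% with TMM, 19.5% with log2(FPKM + 1)). In the list counts, tried under the same alternatives after the data were seen, no called gene changed sign with library size alone or log2(FPKM + 1). With the replicate block 5043 genes were called in SWAT against EWAT, 2595 in SWAT against NWAT and 3793 in EWAT against NWAT. The deviations of same-numbered libraries correlated by at most 0.11 (0.000549 in SWAT and EWAT, 0.0375 in SWAT and NWAT), so the numbers are not taken to pair them, and the block changed no call of a member. Depth limits Tbx4, Tbx20 and the EWAT and NWAT levels of Tbx1 and Tbx5.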
